A study of Homo sapiens with 2 samples.

Results

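Within the FOLR1-high cells of a pool of 3 ovarian cancer cell lines, 2 expression states were compared: one with counts of CXCL14, HSD17B2 and MOXD1, and one with counts of CD44, DEFB1 and KRT24. A cell joined the CXCL14 state when the first set of genes held at least 2 counts and at least 75% of the counts of all 6 genes, and the CD44-DEFB1 state by the mirrored rule. The CXCL14 state held 271 cells, which is 37.1% of the 730 cells of the line (exact Clopper-Pearson 95% interval 33.6 to 40.7%). The CD44-DEFB1 state held 241 cells, or 33.0% (29.6 to 36.6%), so that the states together took in 512 cells of the line, of 2129 barcodes with at least 1000 counts and 2462 in all. A further 208 cells of the line had fewer than 2 counts of the state genes, and 10 had counts of both sets with neither reaching its share. A total of 1187 barcodes belonged by the same line call to the other 2 lines.

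The pool mixed IGROV1, SK-OV-3 and COV504, each an established human ovarian cancer line, in equal parts after detachment with trypsin, and the droplet library was read as whole transcripts on a nanopore instrument. The labels name no treatment, and they give neither which cells came from which line nor the culture conditions. The FOLR1-high line was therefore called from counts (FOLR1, CLDN3, DEFB1 and CXCL14 against ERBB2, NNMT, TSPAN1, DHRS2, RARRES2 and TMEM100) and was given no name. There was 1 library, so cells are not replicates, no test was made, and every interval below covers counting error only.

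CXCL14 is a secreted chemokine of epithelia, HSD17B2 is an enzyme that inactivates oestradiol and testosterone by oxidation, and MOXD1 is a copper-dependent monooxygenase of the endoplasmic reticulum. CD44 is the cell surface receptor for hyaluronan and also binds osteopontin, DEFB1 is a secreted antimicrobial peptide of epithelia, and KRT24 is a type I keratin. In ovarian cancer CD44 is widely used as a marker of cells with invasive or stem-like properties, and FOLR1, the folate receptor of the cell surface, is the target of approved therapy.

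The 6 state genes and the genes of the line call chose the cells, so their values are a description. CXCL14 stood at 1778 CPM in its state, in counts scaled to the total of the group (exact Poisson 95% interval 1712 to 1846), at 1.79 in the CD44-DEFB1 state, where it had 3 counts, and at 5.22 in the other lines. HSD17B2 stood at 122 CPM against 0.597 and MOXD1 at 163 CPM against 0 counts, which is at least 91.0-fold higher against a floor of 3 counts over the state (the exact interval of the ratio begins at 73.5). CD44 stood at 202 CPM in the CD44-DEFB1 state and 8.55 in the CXCL14 state, DEFB1 at 369 against 5.92, and KRT24 at 226 against 1.97. CD44 was also present in the other lines, at 221 CPM, whereas DEFB1 stood there at 0.669 CPM and KRT24 at 0.134 CPM. FOLR1 itself stood at 578 CPM (541 to 618) in the CXCL14 state and 631 CPM (593 to 670) in the CD44-DEFB1 state, 1.09-fold apart (0.996 to 1.19), and at 20.9 CPM in the other lines. CLDN3, a tight junction claudin, stood at 281 CPM in the CXCL14 state and 428 CPM in the CD44-DEFB1 state, 1.52-fold higher in the latter (1.35 to 1.72).

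Most called cells held counts of more than 1 gene of their set, and few held all 3. In the CXCL14 state 240 of 271 cells had a CXCL14 count, 116 an HSD17B2 count and 125 a MOXD1 count, and 45 cells (16.6%) had all 3 and 120 had 2 of them, while 90 cells were called from CXCL14 alone. In the CD44-DEFB1 state 167 of 241 cells had a DEFB1 count, 163 a CD44 count and 120 a KRT24 count, and 46 cells (19.1%) had all 3 and 117 had 2 of them. The states are ranges cut from a sum of few counts: the median cell of the CXCL14 state had 8 counts of its set (highest 69), and the median cell of the CD44-DEFB1 state had 4 (highest 27). Exactly 2 counts carried 29 cells of the CXCL14 state and 52 of the CD44-DEFB1 state into their states. Just outside the threshold lay 40 cells with 1 count of the CXCL14 set and 69 with 1 count of the CD44-DEFB1 set, and 99 cells had none. Near the share limit, 10 cells of the CXCL14 state and 2 of the CD44-DEFB1 state held 75 to 90% of counts from their own set, and the 10 cells between the states ranged from 33.3 to 69.2% CXCL14-set counts. No counts of the opposite set were seen in 251 of the 271 cells of the CXCL14 state and in 237 of the 241 cells of the CD44-DEFB1 state.

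When each state gene was left out of the calls in turn, the other 5 genes still separated it. In the states called without CXCL14, that gene stood at 1087 CPM (1007 to 1173) in 94 cells against 32.2 CPM (24.3 to 41.8) in 246 cells. HSD17B2 stood at 109 against 3.55 CPM and MOXD1 at 125 CPM against no counts in states called without them. On the other side CD44 stood at 10.9 against 161 CPM, DEFB1 at 7.73 against 259 CPM and KRT24 at 2.60 against 172 CPM. These 6 genes were picked for this pattern, so the values describe it and do not support it.

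Cells of the states differed in depth and composition beside the genes. The median total was 5021 counts in the CXCL14 state (1088 to 19029) and 6257 in the CD44-DEFB1 state (1504 to 20495), with 4760 in uncalled cells, 11717 in the 10 cells between the states and 5563 in the other lines. Mitochondrially encoded RNA had a median share of 7.44% in the CXCL14 state and 6.53% in the CD44-DEFB1 state, and 2.90% in the other lines. Ribosomal protein genes held 30.0% and 25.6% of counts in the 2 states, and 13.4% in the other lines. At an equal 2000 counts per cell, the median number of genes was 916.5 and 963. Scrublet marked 2 cells of the CXCL14 state and 1 of the CD44-DEFB1 state as doublets, and 2 of the 10 cells between the states. The part of depth and RNA composition in the differences below was not tested.

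Across 5823 genes with at least 50 counts in both states together, calling genes left out, most differed little. The median log2 ratio of the CXCL14 state over the CD44-DEFB1 state was -0.04 (quartiles -0.38 and 0.26), and 73.7% of genes lay within 1.5-fold. At least 2-fold higher in the CXCL14 state were 178 genes (3.06%), and at least 2-fold higher in the CD44-DEFB1 state were 388 genes (6.66%). With mitochondrially encoded and ribosomal protein genes left out of the totals, the split was 234 and 321 genes. Differences of at least 8-fold were seen for 27 genes higher in the CXCL14 state and 47 higher in the CD44-DEFB1 state.

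For the genes that differed most, the sequence before the transcription start was read where a reference promoter was at hand. Of the 12 genes named on each side, 7 of the CXCL14 side and 9 of the CD44-DEFB1 side had a RefSeq promoter (GRCh38.p14), and 250 bases before the start were searched on both strands for TGANTCA (the AP-1 motif), TATAAA (the TATA box) and CTTTGAA (a TCF and LEF type motif). AP-1 letters lay in 6.60% of 27305 promoters, TATAAA in 11.1% and CTTTGAA in 3.88%. None of the 7 promoters of the CXCL14 side held any of the 3, and of the 9 of the CD44-DEFB1 side TATAAA lay in 3 (EREG, MMP7 and PROCR), and the other two motifs in MMP7. A match is a run of letters and no measured binding, and no match overlapped another in the stretches shown. Those of MMP7, SPP1 and EREG are shown since these secreted proteins differed most among the ligands and matrix proteins named for the CD44-DEFB1 state. They run 5′ to 3′ on the gene's strand and end before the first exon of every GENCODE 29 transcript, with the motifs in capitals. The MMP7 stretch is chr11:102530754-102530997 on the minus strand, that of SPP1 chr4:87975464-87975649 on the plus strand, and that of EREG chr4:74364895-74365142 on the plus strand.
MMP7: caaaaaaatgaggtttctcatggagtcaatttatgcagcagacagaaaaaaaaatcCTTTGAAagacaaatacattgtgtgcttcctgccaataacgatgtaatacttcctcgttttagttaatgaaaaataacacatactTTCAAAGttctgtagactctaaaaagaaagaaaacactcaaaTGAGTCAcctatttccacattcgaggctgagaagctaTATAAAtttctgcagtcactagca
SPP1: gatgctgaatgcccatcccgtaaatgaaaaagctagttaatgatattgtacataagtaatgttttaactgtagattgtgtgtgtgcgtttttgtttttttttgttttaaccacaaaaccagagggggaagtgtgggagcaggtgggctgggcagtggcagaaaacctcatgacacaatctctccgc
EREG: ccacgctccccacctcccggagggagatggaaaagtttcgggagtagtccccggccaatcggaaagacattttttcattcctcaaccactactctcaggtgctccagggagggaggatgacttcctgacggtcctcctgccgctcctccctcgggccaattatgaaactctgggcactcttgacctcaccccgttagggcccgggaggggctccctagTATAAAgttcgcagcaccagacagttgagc

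The CD44-DEFB1 state had more counts of a matrix protein, a metalloproteinase and its inhibitor. SPP1 (chr4:87975650-87983426, plus strand), which encodes osteopontin, a matrix protein that binds CD44 and integrins, stood at 4315 CPM (4216 to 4416) in this state and 158 CPM (138 to 179) in the CXCL14 state, a 27.4-fold difference (24.05 to 31.2). Per cell, SPP1 ran from 0 to 496 counts with a median of 16 in the CD44-DEFB1 state, and from 0 to 73 with a median of 0 in the CXCL14 state, so the ranges overlapped. A count of SPP1 was seen in 223 of 241 cells and in 27 of 271 cells, and the fullest 25 of the 241 cells held 38.9% of the state's SPP1 counts. In the other lines SPP1 stood at 304 CPM, above the CXCL14 state, with a count in 611 of 1187 cells. MMP7 (chr11:102520508-102530753, minus strand), matrilysin, a secreted metalloproteinase of epithelia that cleaves osteopontin among other proteins, stood at 690 CPM (651 to 731) against 24.3 (17.1 to 33.5), 28.4-fold higher (20.5 to 40.5). Thinned to 2000 counts per cell, MMP7 was counted in 51.9% of cells of the CD44-DEFB1 state, 2.69% of the CXCL14 state and 4.08% of the other lines (78.0 and 4.06% of the states' cells before thinning). The counts of MMP7 outside its state were uneven: 37 counts fell in 11 cells of the CXCL14 state, up to 12 in a cell, and 189 counts in 99 cells of the other lines, up to 14 in a cell. TIMP1, the secreted inhibitor of metalloproteinases, was 7.33-fold higher in the same state (5.95 to 9.12), at 482 CPM against 65.7, and stood at 422 CPM in the other lines.

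Receptors and adhesion proteins followed. ITGB4, the integrin subunit of hemidesmosomes, had 185 counts in the CD44-DEFB1 state and 3 in the CXCL14 state, or 110 CPM (95.1 to 128) against 1.97 (0.407 to 5.76). PROCR, the endothelial protein C receptor, stood at 89.0 against 1.31 CPM, 67.7-fold higher with an interval of 18.4 to 564, since the CXCL14 state had 2 counts. EPCAM, the epithelial adhesion molecule, was 19.8-fold higher (11.4 to 37.6), at 169 against 8.55 CPM. ITGB4 stood at 169 CPM in the other lines and EPCAM at 75.8 CPM, so that the CXCL14 state was below both for these genes. PROCR stood at 14.9 CPM there.

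Among ligands, EREG, the epidermal growth factor family member epiregulin, had 121 counts against 2 (72.2 against 1.31 CPM). BDNF, a neurotrophin, stood at 107 against 7.23 CPM, 14.9-fold higher (8.11 to 30.3), and IL18, an interleukin-1 family cytokine, at 287 against 19.7 CPM, 14.6-fold higher (10.1 to 21.8). EREG was the most uneven of these over cells: 54 of 241 cells had a count, and 25 cells held 76.0% of its counts. IL18 was counted in 185 of the 241 cells and in 19 of the 271. Inside the cell, GNG11, a G protein gamma subunit, stood at 324 against 13.8 CPM, ID2, an inhibitor of basic helix-loop-helix factors, at 82.4 against 3.94 CPM, and AKR1C1, an aldo-keto reductase that reduces progesterone, at 158 against 9.86 CPM. GNG11 was higher still in the other lines, at 656 CPM, and AKR1C1 stood there at 190 CPM. IL18 stood there at 88.2 CPM, ID2 at 55.1, BDNF at 48.7 and EREG at 12.2 CPM, each between the 2 states. AKR1C1 shares long stretches with its paralogues, so the split of counts among them is uncertain. Over the 14 to 16 alternatives that gave a value, the log2 ratio of these genes kept its sign; that of GNG11 ran from -6.64 to -3.64 and that of MMP7 from -6.70 to -4.56.

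Matrix entries that join several overlapping genes cannot be given to one of them. The entry of FXYD2 and FXYD6, small membrane proteins that regulate ion transport, stood at 2173 CPM (2103 to 2245) in the CD44-DEFB1 state, 69.0 (56.5 to 83.6) in the CXCL14 state and 21.3 in the other lines, 31.5-fold apart (25.9 to 38.6). The entry holding QPRT, an enzyme of NAD synthesis, stood at 245 against 20.4 CPM, and the entry of RTEL1 and TNFRSF6B, a helicase and a decoy receptor, at 319 against 35.5 CPM. In the other direction the entry of ECSCR and AC142391.1 had 103 counts in the CXCL14 state and none in the CD44-DEFB1 state, at least 37.8-fold higher against the floor of 3 counts (the exact interval begins at 30.2).

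The CXCL14 state was higher in another group of secreted proteins and receptors, several of which the other lines held too. IGFBP3 (chr7:45912245-45921274, minus strand), the main carrier of insulin-like growth factors in plasma, stood at 810 CPM (765 to 856) against 65.7 CPM (54.0 to 79.2), 12.3-fold higher (10.1 to 15.1). Its counts per cell ran from 0 to 47 with a median of 3 in the CXCL14 state, and from 0 to 9 with a median of 0 in the CD44-DEFB1 state. MDK (chr11:46380756-46383837, plus strand), the heparin-binding growth factor midkine, stood at 1123 CPM (1071 to 1178) against 162 CPM (143 to 182), 6.94-fold higher (6.10 to 7.92). MDK was counted in 259 of 271 and 103 of 241 cells, so that here both states held many cells with counts. In the other lines MDK stood at 787 CPM, IGFBP3 at 115, above its level in the CD44-DEFB1 state, SDC2 at 111, FBN2 at 37.2 and NELL2 at 5.22 CPM. SDC2, a heparan sulphate proteoglycan of the cell surface, was 8.27-fold higher (6.16 to 11.3). NELL2, a secreted glycoprotein of neural tissue, had 264 counts against 2, or 174 CPM (153 to 196) against 1.19 (0.145 to 4.31). FBN2, the microfibril protein fibrillin 2, had 149 counts against 1, and SERPINF1, which encodes the secreted factor PEDF, had 148 against 5.

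The membrane receptor CALCRL, which with RAMP proteins binds CGRP and adrenomedullin, stood at 84.1 CPM in the CXCL14 state and 1.19 in the CD44-DEFB1 state, and at 0.134 CPM in the other lines. The synaptic adhesion protein NLGN4X had 134 counts against 1, and CAVIN2, a coat protein of caveolae, 201 against 2. LIMCH1, an activator of non-muscle myosin, was 11.6-fold higher (8.36 to 16.6), IGF2BP1, an RNA-binding protein of fetal tissue, 17.1-fold (9.03 to 36.3), and MPC1, a subunit of the mitochondrial pyruvate carrier, 6.80-fold (5.40 to 8.64). IGF2BP1 stood at 0.402 CPM in the other lines, SERPINF1 had no count there, and CAVIN2 stood at 86.1 CPM. Thinned to 2000 counts, NELL2 was counted in 30.4% of cells of the CXCL14 state, 0.418% of the CD44-DEFB1 state and 0.710% of the other lines. Where the lower state had 1 or 2 counts the size of the ratio was loose: over 16 alternatives the log2 ratio of NELL2 ran from 3.59 to 7.85 and that of CAVIN2 from 3.10 to 7.18.

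**Figure D1:**
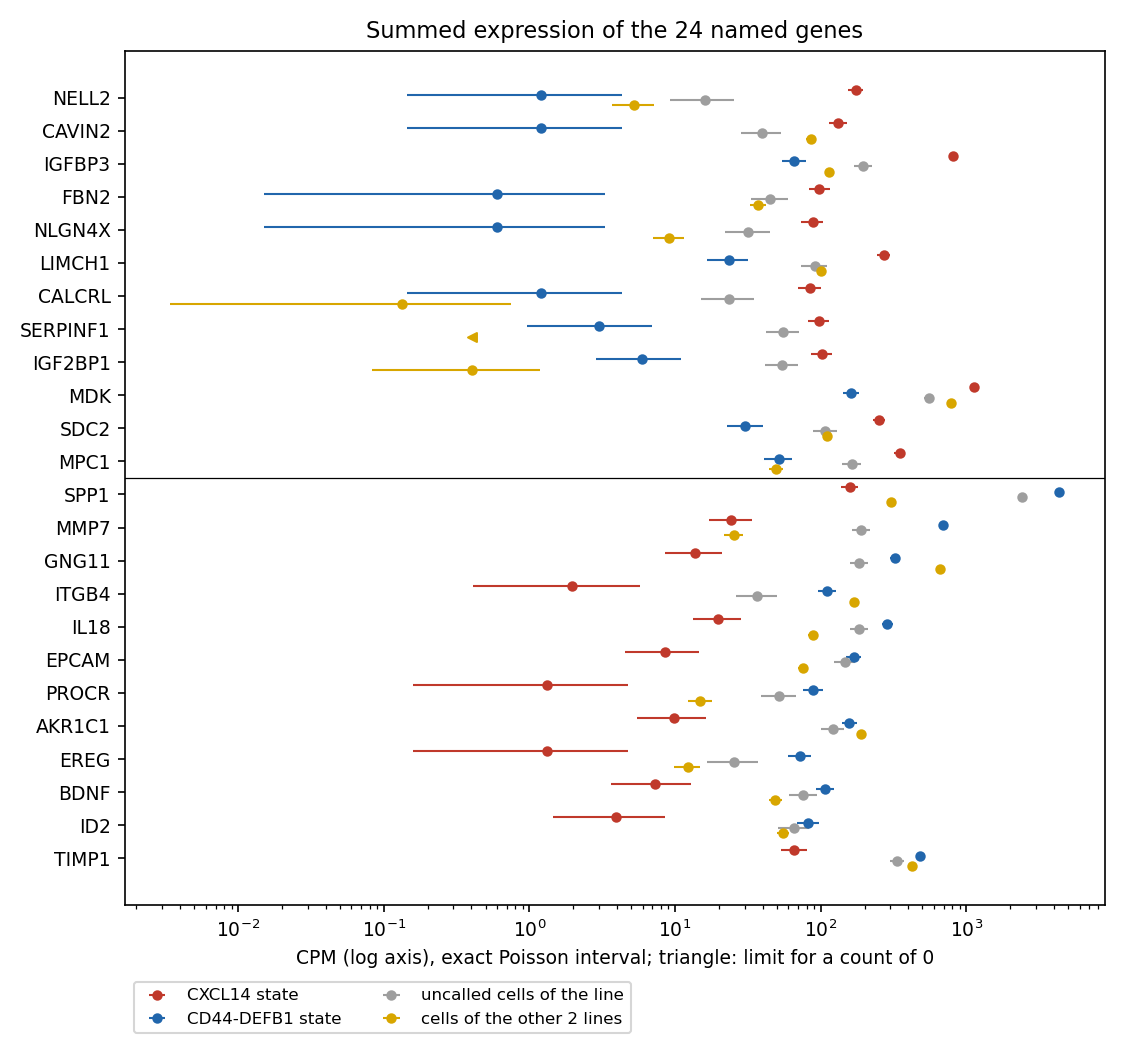
CPM of the 24 named genes on a log axis in the CXCL14 state, the CD44-DEFB1 state, uncalled cells of the line and cells of the other 2 lines, as points with exact Poisson intervals. Uncalled cells lie between the states, while GNG11 at 656 CPM in the other lines is above both states.

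The counts of the 24 named genes were then summed in each cell. Of the 271 cells of the CXCL14 state 258 had at least 75% of these counts from the CXCL14 side, 11 lay between and 2 were on the opposite side. Of 240 cells of the CD44-DEFB1 state with at least 2 such counts, 228 were on their own side, 11 lay between and 1 was on the opposite side. The genes were chosen from these same cells, so this agreement is a description. The 208 uncalled cells played no part in that choice. Of the 207 with at least 2 such counts, 65 (31.4%) were on the CXCL14 side, 116 (56.0%) on the CD44-DEFB1 side and 26 (12.6%) between. The sums are of raw counts, so that genes with many counts weigh most. In uncalled cells SPP1 had 2557 counts and TIMP1, the next on its side, 356. On the CXCL14 side MDK had 591 counts and IGFBP3 208. Summed over uncalled cells, the named genes stood at levels between those of the states, such as SPP1 at 2400 CPM and IGFBP3 at 195 CPM. Whether uncalled cells are a mixture of the states or a graded range was not tested. Of the 10 cells with counts of both sets, 5 lay between by the named genes too, 2 were on the CXCL14 side and 3 on the other. In the other lines 594 of 1180 cells lay between and 536 were on the CD44-DEFB1 side.

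**Figure D2:**
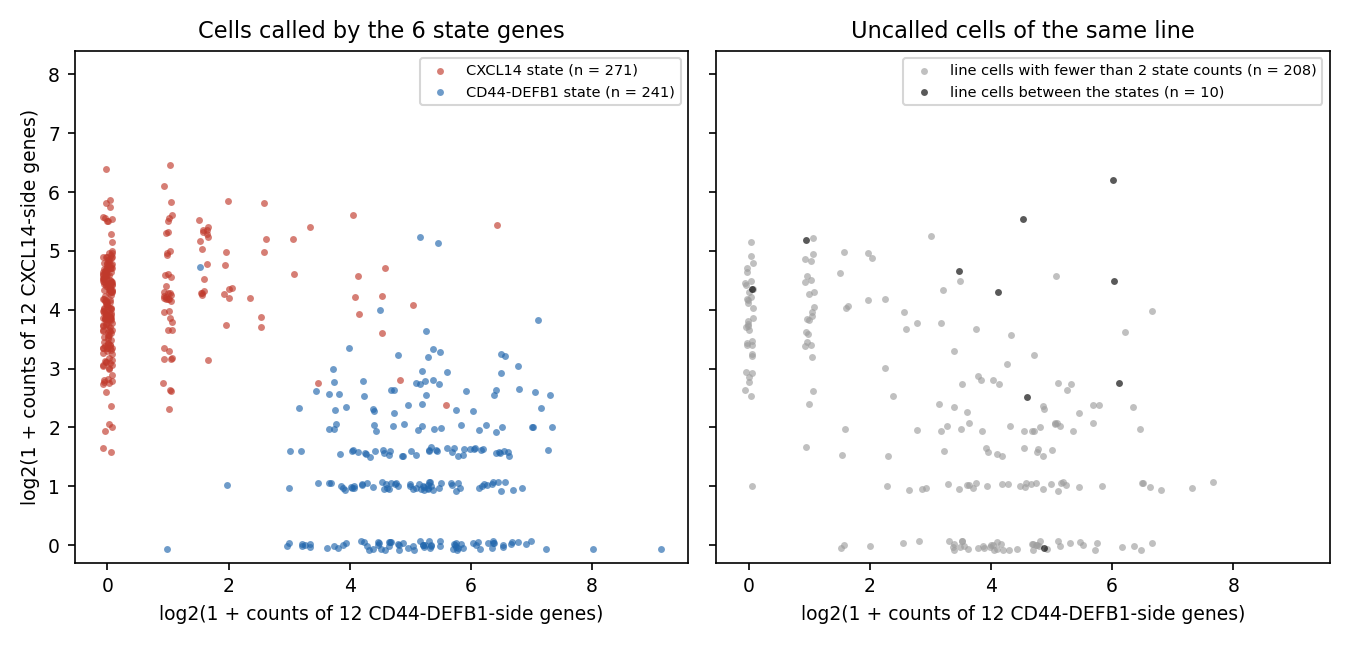
Each point is a cell of the FOLR1-high line, placed by its counts of the 12 CD44-DEFB1-side genes (horizontal) and the 12 CXCL14-side genes (vertical), both as log2 of 1 plus the count with a small jitter. The called states (left) lie along different axes, and the uncalled cells (right) fall along both, 65 on the CXCL14 side and 116 on the CD44-DEFB1 side.

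Lists of related genes were counted next, each beside the 3.06% and 6.66% of all genes and the median log2 ratio of -0.04. Of 31 genes of chemokines and innate defence 3 were measured deeply enough, and 2 were higher in the CD44-DEFB1 state: IL18, given above, and SLPI, a secreted inhibitor of neutrophil proteases, at 181 against 25.6 CPM (median of the list -2.82). SLPI stood at 1082 CPM in the other lines. Of 11 genes of CD44, hyaluronan and its cytoskeletal linkers, 3 were higher in that state: SPP1, MMP7 and CD24 (median -0.26). CD24, a glycosylated surface protein and ligand of Siglec-10, stood at 2719 CPM (2641 to 2799) against 501 CPM (466 to 538), 5.43-fold higher, and at 230 CPM in the other lines. It was counted in 240 of 241 cells of the CD44-DEFB1 state and in 183 of 271 of the CXCL14 state, with medians of 16 and 1 counts per cell.

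Of 4 keratins measured beside KRT24, 3 were higher in the CD44-DEFB1 state (median -1.46). KRT8 and KRT18, the keratin pair of simple epithelia, stood at 307 against 59.2 CPM and 1542 against 515 CPM, and KRT19, a keratin of ducts, at 2320 against 924 CPM. In the other lines KRT8 stood at 1216 CPM and KRT18 at 2802, above both states, and KRT19 at 557 CPM, below both. KRT8 and KRT18 overlap on opposite strands, so counts near their ends may be split wrongly. Of 6 ovarian epithelial genes 3 were higher in the CD44-DEFB1 state: EPCAM, SLC34A2, a phosphate transporter, at 111 against 15.8 CPM, and LGALS3BP, a secreted galectin ligand, at 355 against 161 CPM. MECOM, a transcription factor of the 3q arm, was 2.29-fold higher in the CXCL14 state (1.90 to 2.77; list median -0.67). LGALS3BP was below 2-fold in states called without CXCL14 (log2 ratio -0.94).

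Of 7 genes of the clear-cell list, LHX1, a homeobox factor of the kidney and reproductive tract, and GLRX, a glutaredoxin, were 5.77-fold (4.53 to 7.44) and 4.02-fold (2.42 to 6.96) higher in the CXCL14 state. SPP1, ANXA4, an annexin linked to clear-cell tumours, and SLC3A1 were higher in the CD44-DEFB1 state, with ANXA4 at 906 against 327 CPM (list median -0.30). Of 8 steroid enzymes 3 were higher in the CD44-DEFB1 state, the paralogues AKR1C1, AKR1C2 and AKR1C3 (median -0.72); AKR1C2 stood at 28.1 against 3.29 CPM and AKR1C3 at 32.2 against 5.26 CPM. None of 6 genes of copper handling passed 2-fold, and SOD1, the copper-zinc superoxide dismutase, stood at 435 and 459 CPM (median -0.06; above 0 in 3 of 16 alternatives). CA2, a carbonic anhydrase of the ion transport list, was 4.99-fold higher in the CD44-DEFB1 state (4.13 to 6.06), at 426 against 85.5 CPM; the median over 7 genes of that list was -0.06, and at or above 0 in 4 of 16 alternatives.

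Of 9 mesenchymal genes only TPM1, a tropomyosin of actin filaments, passed 2-fold, at 1714 CPM (1649 to 1781) in the CXCL14 state and 521 CPM (487 to 557) in the CD44-DEFB1 state (list median 0.41). Of 6 TGF-beta and BMP genes, BMP7, a bone morphogenetic protein, and LTBP1, a latent TGF-beta binding protein, were 3.40-fold and 3.13-fold higher in the CXCL14 state and ID2 was higher in the other. The median of that list was 0.23, but it was below 0 in 7 of 14 alternatives, and the summed level was 831 CPM in the CXCL14 state and 1043 in the CD44-DEFB1 state. Of 4 WNT genes FZD7, a Frizzled receptor, was higher in the CD44-DEFB1 state, with 86 counts against 6, while the list's median of -0.10 and its summed level, 1205 CPM in the CXCL14 state against 766, point to opposite sides; the median was at or above 0 in 3 of 14 alternatives. Of 7 YAP target genes CYR61 and AMOTL2 were 2.35-fold and 2.18-fold higher in the CXCL14 state, and F3, which encodes tissue factor, and AMOTL1 were 3.61-fold and 3.07-fold higher in the CD44-DEFB1 state (median -0.78). The YAP list summed to 297 CPM in each state, so its median was not matched by its summed level, and the median was 0 in 1 of 14 alternatives. CYR61 and AMOTL2 were below 2-fold in states called without CXCL14 (log2 ratio 0.87 and 0.90).

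Of 10 interferon-stimulated genes 4 were higher in the CD44-DEFB1 state and none in the CXCL14 state (median -0.78). These were IFITM3 at 1329 against 441 CPM, IFITM2 at 923 against 366, IFITM1 at 607 against 285, closely related membrane proteins whose counts may be shared, and the ubiquitin-like modifier ISG15 at 217 against 74.9 CPM. IFITM1 was below 2-fold in 3 of 16 alternatives. IFITM1, IFITM2 and IFITM3 are neighbours on chromosome 11, in a 20 Mb window whose 72 genes had a median of -0.50. In the other lines IFITM3 stood at 1072 CPM, IFITM2 at 339, IFITM1 at 476 and ISG15 at 541 CPM. Of 8 NF-kB targets BIRC3, an inhibitor of apoptosis, had 78 counts in the CD44-DEFB1 state and 3 in the CXCL14 state, and IER3, an early response gene, was 2.65-fold higher in the CXCL14 state (list median -0.17, above 0 in 2 of 14 alternatives, with 402 CPM summed in the CXCL14 state and 361 in the other). Of 22 stress and early response genes, GDF15, a stress cytokine, was 2.37-fold higher in the CXCL14 state, and HSPA1B, TRIB3, FOS and GCLM were higher in the CD44-DEFB1 state by 2-fold or more, HSPA1B by 3.16-fold (median -0.34). GDF15 was below 2-fold with cells thinned to 2000 counts (log2 ratio 0.96) and in states called without CXCL14 (0.79). HSPA1B has a near-identical copy, so its counts are uncertain.

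Cell cycle genes showed no member past 2-fold. Of 21 S phase genes the median was 0.08, and below 0 in 2 of 16 alternatives, and of 24 G2 and M phase genes it was -0.38 (-0.57 to -0.03 over 16 alternatives). CKS2, a cyclin-dependent kinase subunit, stood at 429 CPM in the CXCL14 state and 778 in the CD44-DEFB1 state. CKS2 was past 2-fold when cells were thinned to 2000 counts (log2 ratio -1.17) and as a mean of per-cell CPM (-1.02). Of 15 hypoxia and glycolysis genes NDRG1 and DDIT4 were 3.37-fold and 2.18-fold higher in the CD44-DEFB1 state (median -0.25). The median over 17 cholesterol and lipid genes was -0.28. Of 6 abundant cytoplasmic and nuclear RNAs kept as a check of RNA composition, TMSB4X and TMSB10, which encode thymosins that bind actin monomers, were 4.93-fold and 2.46-fold higher in the CD44-DEFB1 state (median -0.66), TMSB4X at 4425 against 898 CPM and at 6376 CPM in the other lines.

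Markers of the other lines were lower in both states than in those lines. Of 3 SK-OV-3-like amplicon genes with enough counts none passed 2-fold (median -0.06; above 0 in 7 of 14 alternatives), and the list summed to 187 CPM in the CXCL14 state, 162 in the CD44-DEFB1 state and 541 in the other lines. No gene of the RARRES2-high list was measured deeply enough, and it summed to 5.92, 8.96 and 137 CPM. Genes of the line call were held low by the rule that chose the cells: DHRS2 had no count in either state, and NNMT had 1 count in each against 436 CPM in the other lines. TSPAN1, another of them, had 24 counts in the CXCL14 state and 9 in the CD44-DEFB1 state, or 15.8 against 5.37 CPM (ratio 2.94, 1.32 to 7.18), and stood at 203 CPM in the other lines.

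**Figure D3:**
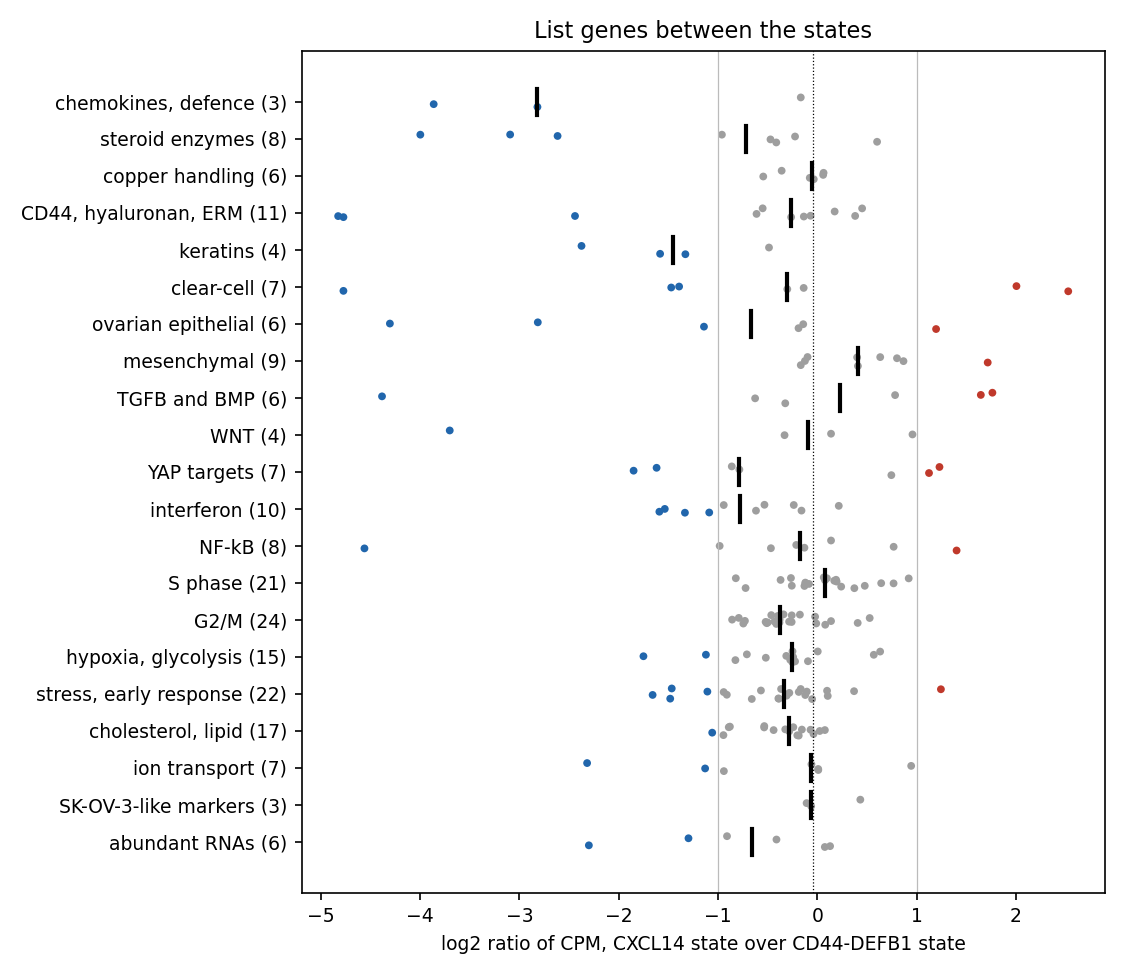
The log2 ratio of CPM between the states for each list gene with at least 50 counts (points, coloured past 2-fold), with the list's median as a black bar and the number of genes in brackets; the dotted line is the median of all genes. Keratins (median -1.46) and interferon genes (-0.78) lie to the CD44-DEFB1 side, and S phase genes (0.08) sit around 0.

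Ratios also differed by chromosome, a pattern picked after the values were seen. On chromosome 3 the median log2 ratio over 327 genes was 0.29, and all 9 windows of 20 Mb with at least 10 genes lay above the median of all genes (0.15 to 0.46). On chromosome 4 the median over 204 genes was -0.34 with all 10 windows below (-0.45 to -0.20), and on chromosome 20 it was -0.37 over 171 genes with all 4 windows below (-0.54 to -0.32). Chromosomes 9 and 22, with 6 and 3 windows, also lay wholly below, at a median of -0.10 each, and the 2 windows of chromosome 21 lay above, at 0.06, so that windows all on one side were not particular to chromosomes 3, 4 and 20. Chromosomes 6 and 7 stood at 0.14 each, chromosome 18 at -0.22 and chromosome 11 at -0.20. Single windows of the latter chromosomes were as low as any on chromosomes 4 and 20. Window 1 of chromosome 18 stood at -0.65, and windows 1 and 2 of chromosome 11 at -0.50 and -0.62. The IFITM genes lie in window 1 of chromosome 11, and BDNF and CD44 in window 2. With genes past 2-fold left out, chromosomes 3, 4 and 20 stood at 0.27, -0.29 and -0.32. Over 17 alternatives, the median of chromosome 3 ran from 0.06 to 0.42, that of chromosome 4 from -0.36 to -0.24 and that of chromosome 20 from -0.41 to -0.26. Of the genes measured on chromosome 3, 25 (7.65%) were at least 2-fold higher in the CXCL14 state, MECOM among them, and 6 (1.83%) in the CD44-DEFB1 state, beside 3.06% and 6.66% of all genes. On chromosome 20 these were 1 (0.585%) and 22 (12.9%), with PROCR and SLPI among the latter. On chromosome 4 they were 7 (3.43%), near the share of all genes, and 24 (11.8%), with SPP1, EREG and SLC34A2 among the latter.

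**Figure D4:**
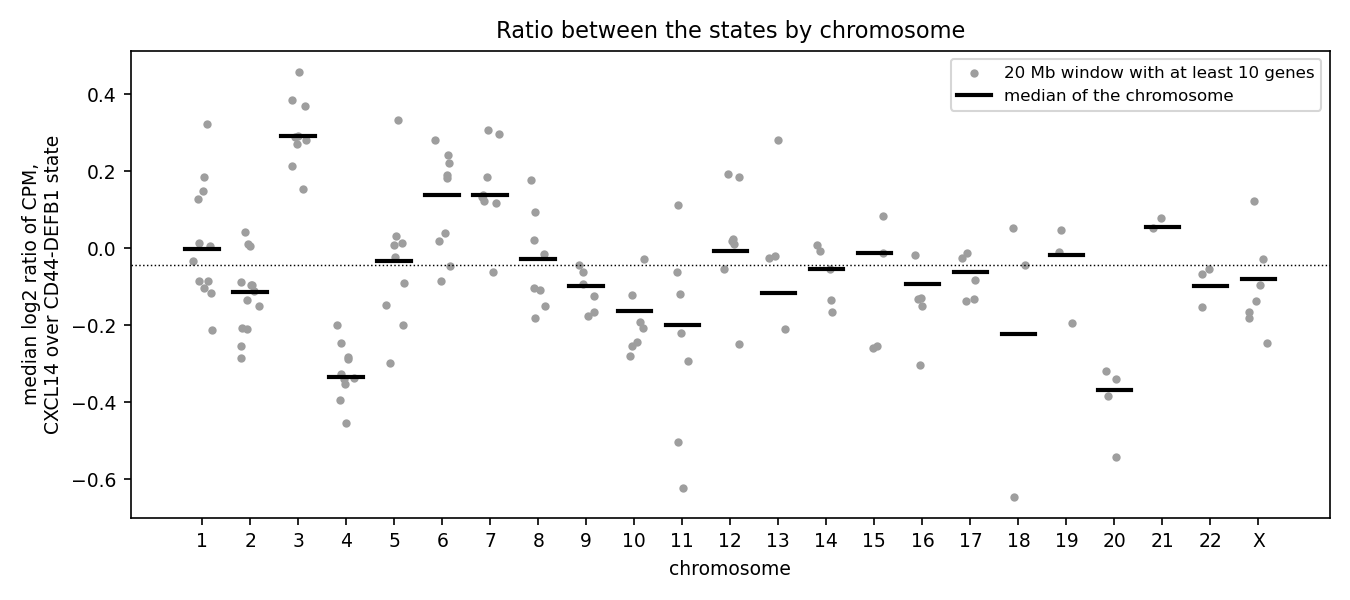
Median log2 ratio of CPM between the states for each chromosome (black bars) and for each 20 Mb window with at least 10 genes (grey points), with the median of all genes as a dotted line. The windows of chromosome 3 (0.15 to 0.46) all lie above that line, and those of chromosomes 4 and 20 all lie below it.

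The choice of transcript within a gene was not used to call the states. Among 1262 genes with at least 100 counts in each state and more than 1 transcript, the median of the largest difference in a transcript's share was 2.19 percentage points, and 4 genes (0.317%) differed by at least 20 points: FOLR1, RNMT, ELOVL5 and TPM1. PAPOLA, a poly(A) polymerase (19.2 points), and the ribosomal protein gene RPL9 (18.8 points) came next.

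FOLR1 (chr11:72189558-72196323, plus strand) had the widest difference while its total level was near equal. GENCODE 29 gives its 3 main transcripts the same coding sequence of 771 bases, and they differ in their first exons. The coding sequence of rarer forms was not compared. ENST00000393676, whose first exon begins at chr11:72192076 and holds the start codon, made up 35.9% of FOLR1 counts in the CXCL14 state (32.7 to 39.2%) and 61.7% in the CD44-DEFB1 state (58.6 to 64.6%). All transcripts with an upstream first exon together made up 64.1% of 880 counts (60.8 to 67.3%) and 38.3% of 1056 counts (35.4 to 41.4%). Most of these counts were of ENST00000393681 and ENST00000312293, which begin at chr11:72189668 and chr11:72189558. Both of these forms were higher in the CXCL14 state, at 34.5 against 19.8% and 28.0 against 17.5%. Uncalled cells stood at 45.1% of 653 counts (41.2 to 48.9%), the 10 cells with counts of both sets at 33.9% of 80 counts (23.6 to 45.2%), and the other lines stood at 62.7% of 156 counts (54.7 to 70.4%). FOLR1 was sparse in the other lines, where 87 of the 114 cells with a count had a single one. The part of background RNA in those counts was not tested. In cells with a single FOLR1 count the upstream share was 65.6% over 45 cells of the CXCL14 state and 26.3% over 38 cells of the CD44-DEFB1 state. The counts are estimates and carry no read lengths.

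**Figure D5:**
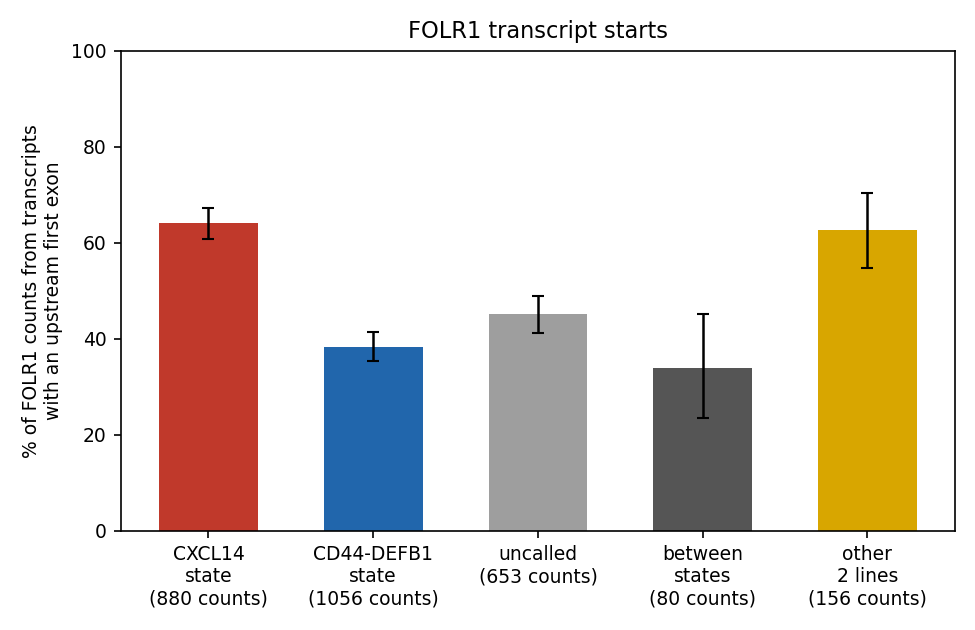
Percent of FOLR1 counts assigned to the transcripts with an upstream first exon in each group (bars from 0), with exact Clopper-Pearson intervals and the number of FOLR1 counts in brackets. The CXCL14 state stands at 64.1% and the CD44-DEFB1 state at 38.3%.

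TPM1 differed in level and in its form. ENST00000358278, which starts at the upstream promoter and encodes a long tropomyosin of 852 coding bases, made up 66.4% of TPM1 counts in the CXCL14 state (64.5 to 68.2%) and 46.1% in the CD44-DEFB1 state (42.7 to 49.4%). ENST00000404484, a short form of 744 coding bases from the internal promoter, made up 9.42% (8.34 to 10.6%) and 22.3% (19.6 to 25.2%). In uncalled cells the shares were 48.4% and 19.9%, and in the other lines 64.8% and 10.2%. The coding part of the first exon, shown since it tells the forms apart, is chr15:63042830-63042943 for the first and chr15:63048576-63048707 for the second (plus strand, GRCh38, GENCODE 29, start codon in capitals).
TPM1 ENST00000358278: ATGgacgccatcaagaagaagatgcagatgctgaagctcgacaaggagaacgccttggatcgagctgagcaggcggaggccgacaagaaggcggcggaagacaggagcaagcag
TPM1 ENST00000404484: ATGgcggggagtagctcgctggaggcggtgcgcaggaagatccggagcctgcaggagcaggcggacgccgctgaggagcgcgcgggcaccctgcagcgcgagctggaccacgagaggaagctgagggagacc

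RNMT, the methyltransferase of the mRNA cap, and ELOVL5, a fatty acid elongase, had fewer counts. ENST00000543302 of RNMT made up 15.1% of 104 counts in the CXCL14 state (9.06 to 23.8%) and 36.5% of 119 counts in the CD44-DEFB1 state (27.5 to 45.4%). ENST00000370913 of ELOVL5 made up 63.7% of 102 counts (53.6 to 73.0%) and 43.4% of 106 counts (33.8 to 53.4%), and 19.4% in the other lines. The 19.2 points of PAPOLA were in ENST00000216277, at 29.7% of 213 counts against 48.9% of 152 counts.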

How the data were processed

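The matrix deposited by the authors holds estimated counts per transcript and barcode from the nanopore library. The series' design text names the Isosceles package, and GRCh38 and Cell Ranger 6.0.1 are listed in the submitters' processing notes without a role. No source used here states the settings. The short-read barcode list was not used here. Counts were summed per gene name, where every sum was whole within 1e-06, while 39.8% of transcript entries were whole, so transcript shares rest on fractional estimates. The PromethION library held 13052893 counts in 2462 barcodes (median 4914.5). Barcodes with at least 1000 counts were kept.

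Counts were summed over the cells of each state and divided by the state's total (CPM). Ratios carry exact conditional binomial intervals, CPM exact Poisson intervals and shares exact Clopper-Pearson intervals, all at 95% and for counting error only. With 1 library no test was made. The 14 calling genes were left out of the ratios and lists, but not of the transcript shares, where FOLR1 was kept because the calls use its total and not its split. Named were the 12 single genes with the highest and the 12 with the lowest ratio after adding 10 CPM, among genes with at least 100 counts (mitochondrially encoded and ribosomal protein genes left out, joint entries in addition), up to 4 members of each list past 2-fold or else the member with the most counts, the 6 genes with the widest transcript difference, and the calling genes. SLC3A1 and GCLM complete the counts of their lists. Members and lists were chosen with earlier results of these data known. For shares of cells with a count, cells were thinned to 2000 counts, which left out 11, 2 and 60 cells of the CXCL14 state, the CD44-DEFB1 state and the other lines. Scrublet, run in scanpy 1.11.5, marked 77 of 2462 barcodes (3.13%) as doublets, which were kept, and left out as an alternative. TMM factors came from edgeR 4.0.16 and no count model was fitted. The code used Python 3.11.15 and was tested on simulated data. The alternatives were a minimum of 2000 counts per barcode, stricter state calls, doublets left out, other scalings (TMM, median ratio, per-cell means, totals without mitochondrial and ribosomal genes), thinned cells, other count, fold and point limits, only near-whole transcript estimates, and states called without each gene. Single members of 2 lists are not reported here.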

Additional observations from a re-analysis of the deposited data

How the results depend on the processing

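Each alternative that gave a value left every named gene on the same side of 1 between the states, except DUT and SOD1, whose ratios lay near 1; over named genes and alternatives, 1043 values kept their side of 2-fold, 10 dropped below it and 2 passed it. The counts moved more. Cells in the CD44-DEFB1 state numbered 87 when cells were thinned to 2000 counts before the calls and 159 without DEFB1, and cells in the CXCL14 state numbered 94 without CXCL14. The genes at least 2-fold higher in the CXCL14 state numbered 588 at a 1.5-fold limit, 73 at 3-fold, 65 of 1421 with thinned cells, 883 with at least 1 count and 55 with at least 200 counts; the genes at least 2-fold higher in the CD44-DEFB1 state numbered 942, 159, 91, 1439 and 112 under the same settings. TMM scaling moved all log2 ratios by 0.09 and gave 228 and 328 genes. List genes past 2-fold, 46 in the main analysis, numbered 25 with thinned cells, 94 with at least 1 count and 29 with at least 200 counts. Of 324 list medians under alternatives, 32 changed sign or were 0. Transcript share differences passed the limit in 65 genes at 10 points, 0 at 30 points, 18 with at least 50 counts in each state, 2 with at least 200 counts, and 2 with states called at 3 counts and 90%. Chromosome medians, single-count cells, and the alternatives for uncalled cells and left-out state genes were added once the data had been seen. No paired analysis was possible because there was 1 PromethION library. Genes with few counts in the lower state, such as FBN2 and EREG, are limited by depth.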
